A study of Homo sapiens with 16 samples.

Results

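The HSP70 family and BAG3 were followed as 9 genes: HSPA1A, HSPA1B, HSPA6, HSPH1 and BAG3, which are inducible by proteotoxic stress, and HSPA8, HSPA4, HSPA2 and HSPA1L, which are constitutive or tissue-restricted. They were found by symbol, through the RefSeq accession of each array probe. That rule uses no measured value, but the genes were picked with earlier results of these data known. All 9 were found, with 12 of the 50599 gene probes of the array, among 20503 symbols that could be matched in the same way. Each member is described by its brightest probe, and a second probe, which HSPA6, HSPH1 and HSPA4 have, is named where its call differs.

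LP-1 is an established line of human myeloma cells, described by the study as having a deleted or mutated TRAF3. LP-1-cIAP2-eGFP cells carry a lentiviral pIRES2 vector for cIAP2, an inhibitor of apoptosis protein, together with eGFP, and control (LP-1-eGFP) cells carry the same vector with eGFP alone. Both lines were sorted for eGFP, and whether they are clones or which promoter drives the vector is not given in the sources used here. Cells were left untreated or received 10 nM bortezomib, a proteasome inhibitor, and RNA was taken at 6 h and at 24 h, which gives 8 conditions with 2 biological replicates each and 16 single-colour arrays. Values are log2 normalized signals of a probe, which can be compared between arrays but not between probes, and the number of arrays limits their precision.

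A few properties of the arrays bear on the values below. The first replicate of the LP-1-cIAP2-eGFP cells given bortezomib for 24 h had a log2 median signal of 3.18 before normalization and 35.5% of its spots well above background, against 5.73 to 6.64 and 49.0% to 71.1% on the other 15 arrays. The first replicate of the untreated LP-1-eGFP cells at 24 h lay below its replicate for several members, as given with each of them, but was not set apart by its median signal (6.58) or its spots well above background (69.3%). The arrays lay on 2 slides, and both LP-1-cIAP2-eGFP arrays with bortezomib at 6 h, and both at 24 h, were on slide 1. BIRC3, the gene of cIAP2, had a signal of 11.92 to 12.13 on the 4 untreated LP-1-cIAP2-eGFP arrays and of 13.54 to 13.67 on the 4 untreated control arrays. According to the study's Methods this probe detects only the endogenous transcript, so it does not check the vector, for which RT-qPCR was used. Of 9 plasma cell markers, 7 were well above background on all 16 arrays, PRDM1 was on 15 and SLAMF7 on 13, whereas MS4A1, PAX5, CSF1R and COL1A2 were on 0 arrays. The epithelial keratins KRT8 and KRT18 were well above background on all 16, CD2 on 15, CD14 on 13, CD3D on 12, CD3E and COL1A1 on 10, DCN on 6, EPCAM on 2 and CD22 on 1, and LYZ had no matched probe.

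HSP70 proteins are ATP-driven chaperones that hold unfolded stretches of other proteins and release them for another attempt at folding. J-domain proteins deliver clients and speed up ATP hydrolysis, while nucleotide exchange factors, among them HSPH1, HSPA4 and the BAG proteins, open the chaperone again. BAG3 also links HSP70 to the autophagy machinery. When unfolded proteins accumulate, as they do when the proteasome is blocked, the transcription factor HSF1 is released from chaperones and binds heat shock elements in the promoters of its targets. Plasma cells and myeloma cells make large amounts of secreted protein, which puts a constant load on this system.

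The heat shock element is built from inverted repeats of a 3-letter unit, and the promoters are shown for that reason. The RefSeq promoter windows (GRCh38.p14, from 250 bases before to 50 after the start of transcription) were searched on both strands for 2 units, GAANNTTC or TTCNNGAA, and for 3 units, GAANNTTCNNGAA or TTCNNGAANNTTC, and every match of 3 units contains matches of 2. Of 35116 windows, 13.5% held 2 units and 0.49% held 3. Among the 9 members, 5 held 2 units (HSPA1A, HSPA1B, HSPA6, HSPA8 and HSPA1L) and 2 held 3 units (HSPA6 and HSPA8). HSPA6 had 3 units at -74 to -62 from the start site and 2 more at -180 to -173, and HSPA8 had 3 units at -230 to -218 and again at -55 to -43. HSPA1A and HSPA1B had a single match of 2 units at -106 to -99 and -105 to -98. HSPA1A and HSPA1L are transcribed away from each other, their windows overlap by 241 bases, and the match of HSPA1L at -161 to -154 is the same element. No match was found in the windows of HSPH1, BAG3, HSPA4 and HSPA2, which says only that these letters are not there. The 250 bases before the start are printed for the members with the largest responses, HSPA6, HSPA1B and BAG3, and for HSPA8 as a constitutive member with matches, 5′ to 3′ on the strand of the gene, with the units in capitals. They are chr1:161524290-161524539 on the plus strand for HSPA6, chr6:31827488-31827737 on the plus strand for HSPA1B, chr10:119651130-119651379 on the plus strand for BAG3 and chr11:123062137-123062386 on the minus strand for HSPA8.
HSPA6: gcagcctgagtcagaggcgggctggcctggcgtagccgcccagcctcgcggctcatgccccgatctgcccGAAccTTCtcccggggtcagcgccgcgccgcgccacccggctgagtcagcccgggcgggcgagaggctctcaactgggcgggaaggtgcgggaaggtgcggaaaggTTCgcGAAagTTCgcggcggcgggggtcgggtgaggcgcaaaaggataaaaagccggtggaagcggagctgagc
HSPA1B: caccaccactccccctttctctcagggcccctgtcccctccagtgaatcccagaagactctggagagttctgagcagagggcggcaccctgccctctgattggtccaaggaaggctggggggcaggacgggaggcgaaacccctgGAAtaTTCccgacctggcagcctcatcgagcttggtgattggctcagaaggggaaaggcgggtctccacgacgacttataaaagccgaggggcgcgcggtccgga
BAG3: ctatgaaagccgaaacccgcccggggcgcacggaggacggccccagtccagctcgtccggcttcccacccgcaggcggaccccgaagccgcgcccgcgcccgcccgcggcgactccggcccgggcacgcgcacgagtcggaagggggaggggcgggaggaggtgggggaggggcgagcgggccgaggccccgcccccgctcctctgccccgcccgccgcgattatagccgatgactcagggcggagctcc
HSPA8: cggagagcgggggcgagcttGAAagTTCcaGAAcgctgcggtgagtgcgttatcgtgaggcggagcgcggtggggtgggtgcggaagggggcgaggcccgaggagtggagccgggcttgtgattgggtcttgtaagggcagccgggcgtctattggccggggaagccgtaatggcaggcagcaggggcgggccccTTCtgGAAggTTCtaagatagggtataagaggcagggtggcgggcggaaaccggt

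**Figure D1:**
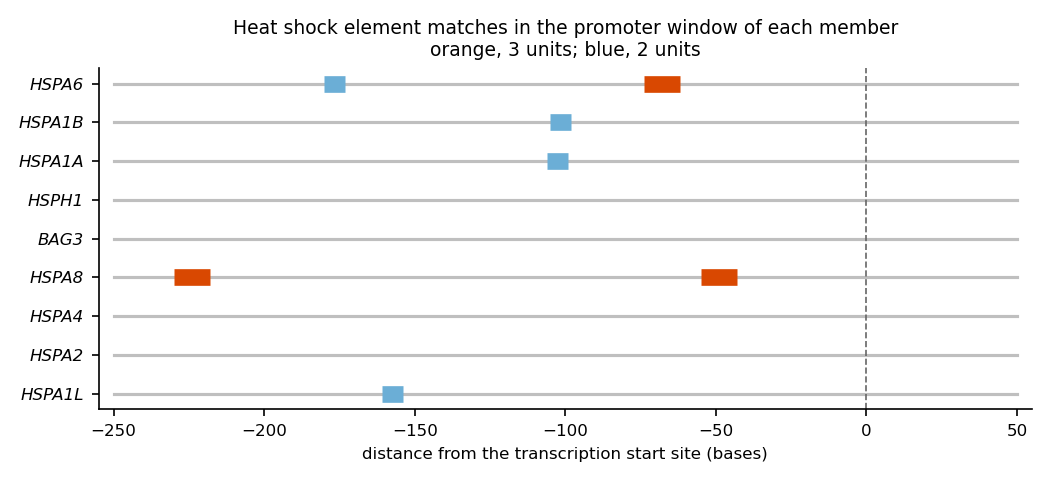
Heat shock element matches in the promoter window of each member, by distance from the transcription start site in bases. Orange bars are 3 units, blue bars 2 units, and grey lines the searched window. HSPA6 and HSPA8 hold matches of 3 units, whereas HSPH1, BAG3, HSPA4 and HSPA2 hold none.

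With bortezomib, HSPA1B, HSPA6, HSPH1 and BAG3 rose in both lines at both times, and no member fell. HSPA1A reached the signal filter only on bortezomib arrays, so it had to differ, and it is left out of the counts of members called here and in the later comparisons. Of the other 8 members, 5 rose in LP-1-eGFP at 6 h, namely the 4 inducible ones and HSPA4, where 0.809% of all probes tested were called higher and 0.314% lower. In LP-1-eGFP at 24 h, 6 of 8 rose, with HSPA8 in addition (background 5.31% higher and 6.67% lower). The 4 inducible members rose in LP-1-cIAP2-eGFP as well, at 6 h (0.549% higher and 0.196% lower), and these and HSPA8 rose at 24 h (6.42% higher and 12.2% lower). A probe was called at a Benjamini-Hochberg adjusted p under 0.05 in limma and a change of more than 2-fold. The median log2 fold change of the 8 members was 1.82 and 2.09 in LP-1-eGFP at 6 h and 24 h and 1.45 and 1.89 in LP-1-cIAP2-eGFP, where the median over all probes tested was -0.03, -0.03, 0.00 and -0.16. When 1 of the 4 arrays of a 6 h comparison was left out, HSPA1B, HSPA6 and BAG3 remained called in that comparison in either line, and the other members called there did not. Within the slide that held both treatments, 3 arrays a comparison, the differences of HSPA6 were 8.90, 9.69, 7.29 and 9.39, those of HSPA1B 4.11, 5.75, 3.63 and 4.98 and those of BAG3 5.40, 4.76, 4.42 and 4.32. Without the array of low signal, the counts were 5, 6, 4 and 6 of 8, in the same order, with HSPA4 in addition in the last. The shares of all probes also moved with single arrays. In both directions together 1.12%, 12%, 0.745% and 18.6% were called, and 0.208% to 1.90%, 9.13% to 15.0%, 0.25% to 1.55% and 13.5% to 39.6% with 1 array left out. The 39.6% was that without bortezomib replicate 2 of LP-1-cIAP2-eGFP at 24 h, which leaves the array of low signal alone in its condition.

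**Figure D2:**
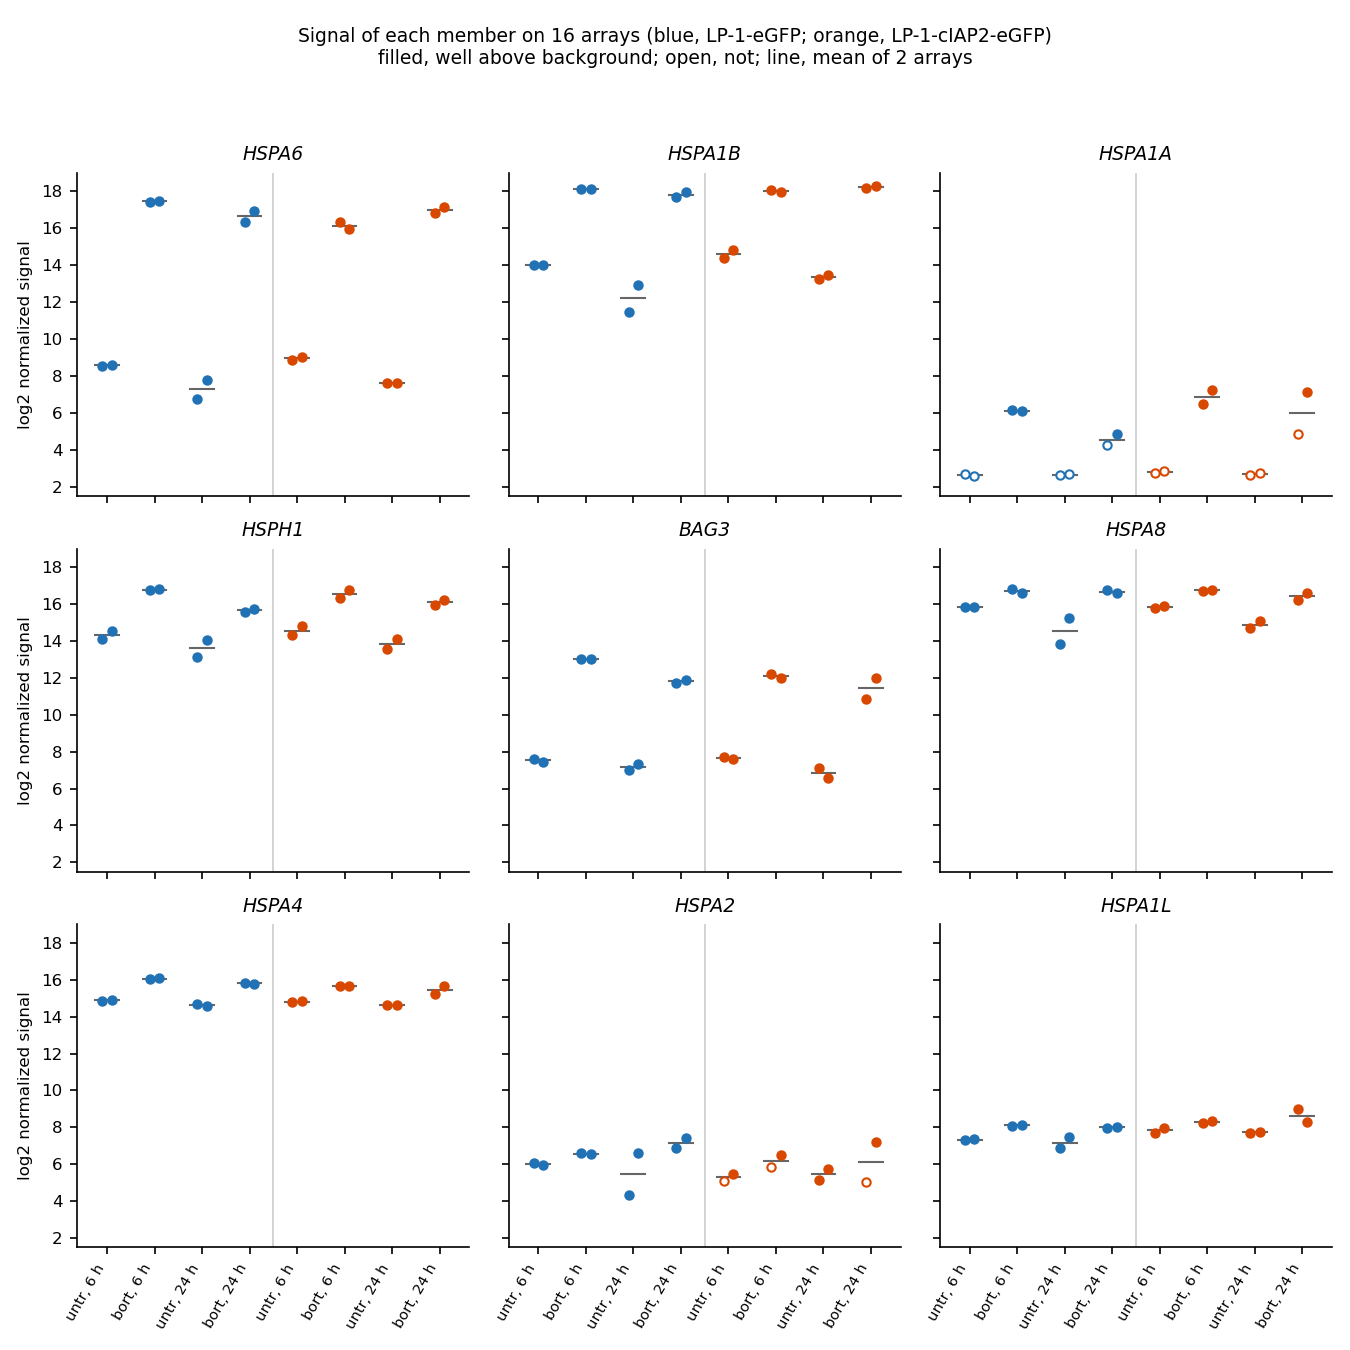
Log2 normalized signal of the brightest probe of each member on all 16 arrays, by condition, with LP-1-eGFP in blue and LP-1-cIAP2-eGFP in orange. Filled points were well above background and open points were not, and lines are means of 2 arrays. HSPA6 moved from between 6.77 and 9.04 on untreated arrays to between 15.95 and 17.48 on bortezomib arrays.

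HSPA6 is known as an inducible HSP70 that is almost silent in unstressed cells. Here both its probes were well above background on all 8 untreated arrays. The signal of its brighter probe in LP-1-eGFP was 8.56 and 8.61 on the untreated arrays and 17.44 and 17.48 on the bortezomib arrays at 6 h. At 24 h the untreated arrays gave 6.77 and 7.78, and the bortezomib arrays 16.34 and 16.97. In LP-1-cIAP2-eGFP the untreated arrays gave 8.85 and 9.04 and the bortezomib arrays 16.33 and 15.95 at 6 h. At 24 h these were 7.60 and 7.64 against 16.85 and 17.13. Every bortezomib array lay above every untreated array, and the gap was wider than the whole spread within either treatment. HSPA6 had the highest log2 fold change of all 16394 symbols tested in both comparisons of LP-1-eGFP, at 8.88 ± 0.31 (standard error, n = 2 against 2, adjusted p = 2.41e-06, limma) at 6 h and 9.37 ± 0.31 (adjusted p = 7.99e-07) at 24 h. These are 469.9-fold and 664-fold. It was also the highest in LP-1-cIAP2-eGFP, at 7.19 ± 0.31 (146-fold, adjusted p = 1.77e-05) at 6 h and 9.37 ± 0.31 (662-fold, adjusted p = 4.16e-07) at 24 h. Its second, dimmer probe gave 8.44 and 7.95 in LP-1-eGFP and 6.47 and 7.92 in LP-1-cIAP2-eGFP.

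HSPA1B and HSPA1A encode the major inducible HSP70 and have nearly identical sequences, so their probes may share target. Whether each probe measures its own gene alone was not tested. HSPA1B gave 14.04 and 14.02 on untreated and 18.15 and 18.14 on bortezomib arrays of LP-1-eGFP at 6 h. At 24 h it gave 11.49 and 12.94 against 17.68 and 17.97, and replicate 1 of the untreated cells was the lower one. In LP-1-cIAP2-eGFP it gave 14.39 and 14.81 against 18.06 and 17.98 at 6 h, and 13.24 and 13.45 against 18.16 and 18.27 at 24 h. The bortezomib arrays of HSPA1B lay between 17.68 and 18.27 over both lines and times, whereas the untreated arrays lay between 11.49 and 14.81. The log2 fold changes were 4.12 ± 0.37 and 5.61 ± 0.37 in LP-1-eGFP (17.4-fold and 48.8-fold) and 3.42 ± 0.37 and 4.87 ± 0.37 in LP-1-cIAP2-eGFP, with adjusted p = 0.00109, 1.91e-05, 0.00413 and 2.23e-05. Without the first untreated array of LP-1-eGFP at 24 h, the value for that comparison was 4.88.

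HSPA1A was measured by 10 spots of 1 dim probe. None of the 8 untreated arrays had it well above background, and its signal there was 2.60 to 2.82. On the bortezomib arrays it gave 6.15 and 6.07 in LP-1-eGFP at 6 h, 4.26 and 4.84 at 24 h, 6.45 and 7.22 in LP-1-cIAP2-eGFP at 6 h and 4.86 and 7.14 at 24 h. Replicate 1 of both 24 h groups was not well above background, so 1 of 2 arrays measured it there. With bortezomib at 6 h, and with the processing used here, the HSPA1A mean lay 3.87-fold over a limit in LP-1-eGFP and 3.19-fold in LP-1-cIAP2-eGFP. The limit was, for each untreated array, the dimmest signal of any tested probe still counted as well above background there. These values are called bounds, but the limit is not that of the HSPA1A probe. A rise of at least that size was therefore not shown. At 24 h the same calculation gave 1.07-fold and 3.51-fold, but 1 of the 2 bortezomib arrays decided it in either line. Against the same limit, replicates 1 and 2 alone gave 0.872-fold and 1.31-fold in LP-1-eGFP, and 1.59-fold and 7.73-fold in LP-1-cIAP2-eGFP. The 1.59-fold is from an array on which HSPA1A was not well above background, so a signal over the limit need not be a measured one. The fit's adjusted p of HSPA1A was 0.0180 and 0.0431 in LP-1-eGFP and 0.0131 and 0.00211 in LP-1-cIAP2-eGFP, but it sets signals against arrays on which the probe was not measured, so nothing is read from it. Between 0 and 3 of the 10 spots on an array were outliers and were left out. With normexp background correction the fitted log2 value at 6 h in LP-1-eGFP was 1.27, where the bound above is 1.95 on that scale. In LP-1-cIAP2-eGFP the lowest fitted value at 6 h over the other settings was 1.47, where the bound is 1.67. The bounds hold only for the processing used here.

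BAG3, the nucleotide exchange factor that links HSP70 to selective autophagy, gave 7.61 and 7.46 on untreated and 13.01 and 13.02 on bortezomib arrays of LP-1-eGFP at 6 h. At 24 h it gave 6.98 and 7.31 against 11.71 and 11.91. In LP-1-cIAP2-eGFP it gave 7.69 and 7.60 against 12.20 and 12.01 at 6 h, and 7.12 and 6.56 against 10.87 and 12.01 at 24 h. The highest bortezomib arrays of BAG3 were those of LP-1-eGFP at 6 h, and the 24 h arrays of LP-1-cIAP2-eGFP were the furthest apart. The log2 fold changes were 5.48 ± 0.33 and 4.67 ± 0.33 in LP-1-eGFP and 4.46 ± 0.33 and 4.60 ± 0.33 in LP-1-cIAP2-eGFP, which are 44.6-fold, 25.4-fold, 22.0-fold and 24.3-fold. The adjusted p was 6.72e-05, 2.51e-05, 0.000404 and 1.56e-05. With each line fitted alone, the call at 6 h in LP-1-cIAP2-eGFP was lost (4.46, adjusted p = 0.120). By log2 fold change BAG3 was number 2 and number 4 of all symbols at 6 h in LP-1-eGFP and LP-1-cIAP2-eGFP, and number 15 and number 27 at 24 h.

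HSPH1, a large HSP70-like exchange factor that is expressed at rest and rises with heat shock, had the smallest response of the inducible members other than HSPA1A in each of the 4 comparisons. It gave 14.12 and 14.53 on untreated and 16.75 and 16.82 on bortezomib arrays of LP-1-eGFP at 6 h, and 13.13 and 14.06 against 15.58 and 15.74 at 24 h. In LP-1-cIAP2-eGFP it gave 14.30 and 14.81 against 16.34 and 16.76 at 6 h, and 13.57 and 14.12 against 15.97 and 16.24 at 24 h. No untreated array reached a bortezomib array of any condition. The log2 fold changes were 2.46 ± 0.33 and 2.07 ± 0.33 in LP-1-eGFP and 2.00 ± 0.33 and 2.26 ± 0.33 in LP-1-cIAP2-eGFP, with adjusted p = 0.00749, 0.00171, 0.0237 and 0.000811. The call at 6 h in LP-1-cIAP2-eGFP was lost under 5 of 13 other settings, with an adjusted p up to 0.224, and in 6 of the 16 fits that left out 1 array. That at 24 h in the same line was lost with array weights (adjusted p = 0.0827). Its second probe was called in all 4 comparisons.

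HSPA8, the constitutive cytosolic HSP70, gave 15.85 and 15.83 on untreated and 16.81 and 16.60 on bortezomib arrays of LP-1-eGFP at 6 h. At 24 h it gave 13.84 and 15.26 against 16.75 and 16.57. In LP-1-cIAP2-eGFP it gave 15.78 and 15.90 against 16.70 and 16.77 at 6 h, and 14.69 and 15.09 against 16.23 and 16.60 at 24 h. The 8 bortezomib arrays lay between 16.23 and 16.81, and the untreated arrays at 24 h lay below those at 6 h. The log2 fold change was 0.86 ± 0.37 (adjusted p = 0.389) and 0.90 ± 0.37 (adjusted p = 0.402) at 6 h in LP-1-eGFP and LP-1-cIAP2-eGFP. It was 2.11 ± 0.37 (4.32-fold, adjusted p = 0.00276) and 1.52 ± 0.37 (2.88-fold, adjusted p = 0.0123) at 24 h, where the value for LP-1-eGFP was 1.404 without replicate 1 of the untreated cells. The call at 24 h in LP-1-cIAP2-eGFP was lost under 3 of 13 other settings, with an adjusted p up to 0.211, among them normexp background correction, where the value itself fell under 2-fold (0.89, adjusted p = 0.195), and without replicate 1 of its untreated cells (1.33, adjusted p = 0.0847).

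HSPA4, an exchange factor of the same family as HSPH1, had the smallest standard error of the members. It gave 14.87 and 14.90 on untreated and 16.03 and 16.08 on bortezomib arrays of LP-1-eGFP at 6 h, and 14.66 and 14.59 against 15.85 and 15.75 at 24 h. In LP-1-cIAP2-eGFP it gave 14.77 and 14.83 against 15.69 and 15.68 at 6 h, and 14.62 and 14.63 against 15.25 and 15.68 at 24 h. The groups did not overlap in any of the 4 comparisons. HSPA4 rose by a log2 fold change of 1.17 ± 0.15 at either time in LP-1-eGFP (adjusted p = 0.00688 and 0.000529). With 75th percentile scaling the value at 24 h was 0.98 (adjusted p = 0.0193), just under 2-fold, and the call was lost. In LP-1-cIAP2-eGFP the values of 0.88 ± 0.15 (adjusted p = 0.0272) and 0.84 ± 0.15 (adjusted p = 0.00259) were under 2-fold. The second HSPA4 probe passed 2-fold there at 6 h, at 1.02 ± 0.12 (adjusted p = 0.00497), and its value at 24 h was 0.87. Without the first of these bortezomib arrays at 24 h, that comparison gave 1.06 for the brighter probe (adjusted p = 0.000218), and with normexp background correction it gave 1.13 (adjusted p = 0.000116).

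HSPA2 and HSPA1L are HSP70 genes known mainly for their expression in testis, and neither was called in the fit used here. HSPA2 gave 4.33 to 6.60 on the 8 untreated arrays (median 5.60) and 5.04 to 7.45 on the 8 bortezomib arrays (median 6.58), and 13 of its 16 signals were well above background. The treatments overlapped in LP-1-cIAP2-eGFP at 24 h, where replicate 1 with bortezomib was not well above background. The log2 fold changes of HSPA2 were 0.56 and 1.69 in LP-1-eGFP and 0.87 and 0.66 in LP-1-cIAP2-eGFP, with a standard error of 0.76 and an adjusted p between 0.165 and 0.995. The value of HSPA2 in LP-1-eGFP at 24 h was 0.56 without replicate 1 of the untreated cells and 2.83 without replicate 2, when it was called (adjusted p = 0.0331). With 75th percentile scaling HSPA2 was called at 24 h in LP-1-eGFP (1.78, adjusted p = 0.0313) and LP-1-cIAP2-eGFP (1.51, adjusted p = 0.0494). Without the array of low signal it was 1.74 in the latter and was not called (adjusted p = 0.135). HSPA1L gave 6.87 to 7.98 on untreated (median 7.58) and 7.96 to 8.97 on bortezomib arrays (median 8.17). Within each line and time its bortezomib arrays lay above its untreated ones. Its log2 fold changes were 0.76 and 0.83 in LP-1-eGFP and 0.44 and 0.90 in LP-1-cIAP2-eGFP, each ± 0.25. At 24 h the adjusted p was 0.0398 and 0.0220, with changes of 1.77-fold and 1.87-fold. HSPA1L passed 2-fold at 24 h in LP-1-eGFP without untreated replicate 2 (1.13, adjusted p = 0.0221), and in LP-1-cIAP2-eGFP without bortezomib replicate 2 (1.24, adjusted p = 0.00181) or with normexp (1.04, adjusted p = 0.0161). Without replicate 1 of the same groups the values were 0.52 and 0.56.

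**Figure D3:**
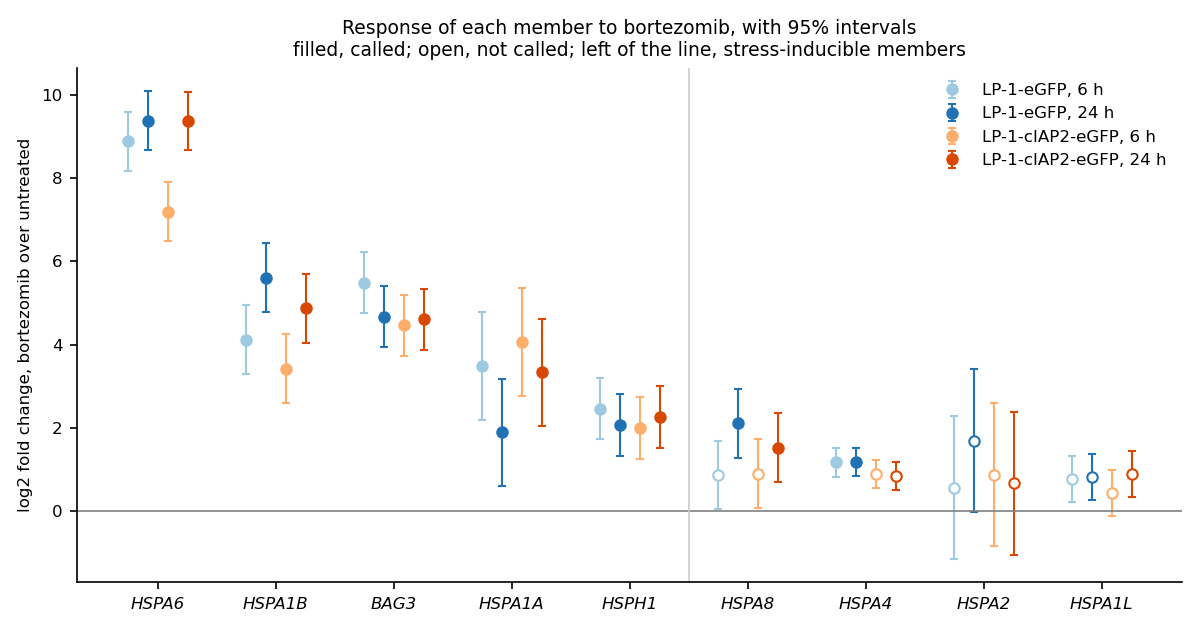
Log2 fold change of bortezomib over untreated cells for each member in the 4 comparisons of line and time, with 95% intervals from the limma fit over 2 against 2 arrays. Filled points were called and open points were not, and the line separates the 5 inducible from the 4 other members. HSPA6 lies between 7.19 and 9.37, and HSPA1L between 0.44 and 0.90, and the points of HSPA1A are fitted against untreated arrays that did not measure it.

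Set side by side as changes from the untreated mean of the same line and time, the 4 inducible members other than HSPA1A, which has only bounds, and the 4 other members formed separate ranges on 7 of the 8 bortezomib arrays. On these arrays the smallest inducible change was that of HSPH1, between 1.79 and 2.50, and the largest change among the others was between 0.89 and 2.02. On replicate 1 of LP-1-eGFP with bortezomib at 24 h the ranges overlapped, since HSPA8 changed by 2.20 and HSPH1 by 1.98. On replicate 2 of the same group they lay close, at 2.02 for HSPA8 and 2.15 for HSPH1. The count was 6 with normexp background correction and 8 with the probes of a gene averaged. By its bounds HSPA1A did not lie above HSPA8 in either 24 h group except on replicate 2 of LP-1-cIAP2-eGFP, at 2.95 over the limit on the log2 scale. Over the 8 arrays the change of HSPA6 was 7.004 to 9.69, that of BAG3 4.03 to 5.49 and that of HSPA1B 3.38 to 5.75. It was 0.76 to 2.20 for HSPA8, 0.62 to 1.22 for HSPA4, 0.38 to 1.24 for HSPA1L and -0.41 to 1.98 for HSPA2, whose lowest value is from an array on which it was not well above background. The classes were set from what is known of the genes, which were picked with earlier results of these data known. HSPH1 and HSPA8, placed in different classes, have both basal and stress-driven expression. The separation was a description, and it was not tested. Of the 5 members with a match of 2 units of the heat shock element, 3 were inducible. BAG3 and HSPH1, which rose in every comparison, had none in the window searched.

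The difference between 24 h and 6 h in the bortezomib response was called for 0 of 8 members in LP-1-eGFP, where 3.93% of all probes tested were called at an adjusted p under 0.05. At an unadjusted p under 0.05 it was 2 of 8, HSPA1B (1.49 ± 0.52) and HSPA8 (1.25 ± 0.52), beside 16.3% of all probes. In LP-1-cIAP2-eGFP it was called for 1 member, HSPA6 (background 8.63%), and at an unadjusted p under 0.05 it was 2 of 8, HSPA6 and HSPA1B (1.45 ± 0.52), beside 23.6%. With 1 array left out the shares called at the adjusted p ran from 0.982% to 11.2% in LP-1-eGFP and from 3.28% to 37.7% in LP-1-cIAP2-eGFP, where the highest was again that without bortezomib replicate 2 at 24 h and the next was 12.4%. The HSPA6 response was larger at 24 h by 2.18 ± 0.44 on the log2 scale (adjusted p = 0.0173). From 6 h to 24 h the bortezomib arrays of HSPA6 in that line went from a mean of 16.14 to 16.99 and the untreated arrays from 8.95 to 7.62. The second HSPA6 probe gave 1.44 ± 0.53 (adjusted p = 0.130), so it was not called. The call was lost in 5 of the 16 fits that left out 1 array (1.99 to 2.27, adjusted p 0.0547 to 0.0653), namely without either untreated array of LP-1-cIAP2-eGFP at 6 h or at 24 h, or without its bortezomib replicate 2 at 6 h. It was also lost with array weights (2.18, adjusted p = 0.113) and with each line fitted alone (2.18, adjusted p = 0.0802). Each comparison at 24 h and at 6 h uses its own untreated arrays, so a difference between times also holds the change of the untreated cells.

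**Figure D4:**
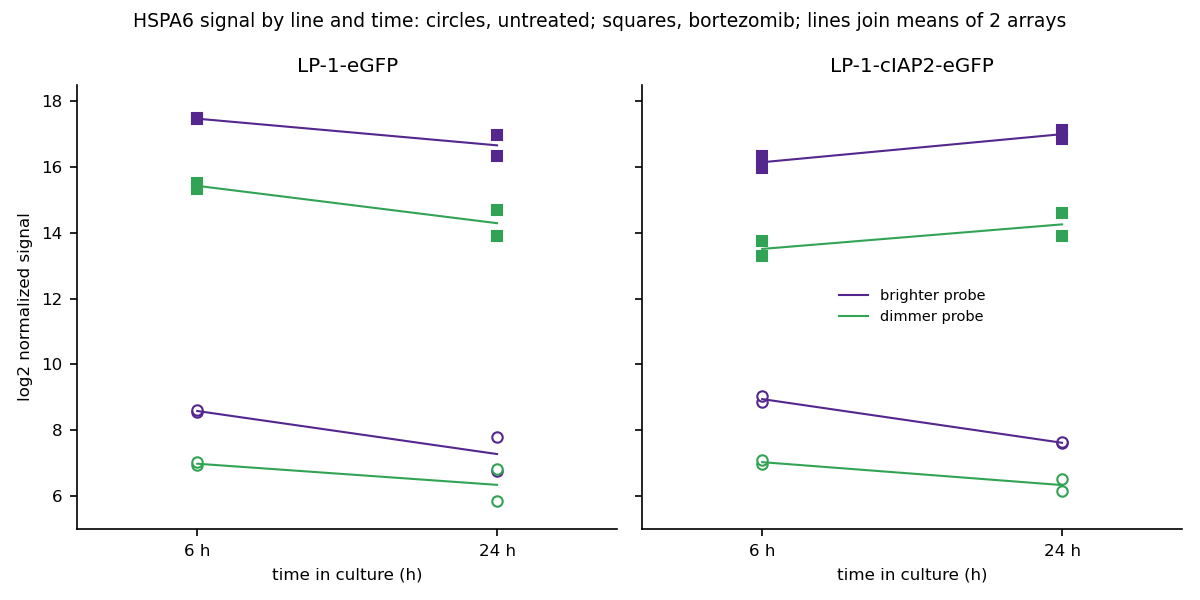
Log2 normalized signal of both HSPA6 probes at 6 h and 24 h in each line. Open circles are untreated and filled squares bortezomib arrays, purple is the brighter and green the dimmer probe, and lines join means of 2 arrays. Untreated means of the brighter probe went from 8.59 to 7.28 in LP-1-eGFP and from 8.95 to 7.62 in LP-1-cIAP2-eGFP.

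Untreated cells were therefore compared between the times, over both lines, in a contrast added after the values were seen. None of the 8 members was called (limma, background 0.0089% of probes), and at an unadjusted p under 0.05 it was 5 of 8, beside 4.84% of all probes. All 5 were lower at 24 h, with HSPA1B at -1.53 ± 0.26, HSPA6 at -1.32 ± 0.22, HSPA8 at -1.12 ± 0.26, HSPH1 at -0.72 ± 0.23 and BAG3 at -0.60 ± 0.23. The lowest adjusted p among them was 0.214, for HSPA6. The first untreated array of LP-1-eGFP at 24 h was the lower array for each of them, and without it the values of HSPA1B and HSPA8 were -1.17 and -0.77. Without replicate 2 of the same group they were -1.90 (adjusted p = 0.0138) and -1.47 (adjusted p = 0.0424), and both were called. HSPA1B was also called with array weights (-1.53, adjusted p = 0.0469). In each line, both untreated arrays at 24 h lay below both at 6 h for 6 of 8 members, all but HSPA2 and HSPA1L, as they did for 19.9% of all probes in the control line and 17.3% in the other. In LP-1-eGFP the mean of HSPA8 was 15.84 at 6 h and 14.55 at 24 h in untreated cells, and 16.71 and 16.66 with bortezomib. In bulk RNA, a change in the share of cells and a change per cell cannot be told apart.

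Whether the response depends on cIAP2 is the question behind the pair of lines. The difference between the lines in the bortezomib response was called for 0 of 8 members at 6 h (background 0.00297% of probes) and for 0 of 8 at 24 h (0.0712%). The latter share was 27.7% without bortezomib replicate 2 of LP-1-cIAP2-eGFP at 24 h, and 0% to 0.274% without any other single array. At an unadjusted p under 0.05 it was 1 of 8 at 6 h, HSPA6, beside 2.05% of probes, and 0 of 8 at 24 h, beside 8.1%. The response of HSPA6 at 6 h was smaller in LP-1-cIAP2-eGFP by -1.68 ± 0.44 (95% interval -2.68 to -0.69), with an adjusted p of 1.00, and the second probe gave -1.96 ± 0.53. BAG3 gave -1.02 ± 0.46 (95% interval -2.06 to 0.02). With bortezomib at 6 h, both LP-1-cIAP2-eGFP arrays were on slide 1 and both LP-1-eGFP arrays on slide 2. Slide and line cannot be told apart in these bortezomib arrays. At 24 h the difference was -0.00 for HSPA6 (95% interval -0.9997 to 0.9931) and -0.06 for BAG3 (-1.10 to 0.97).

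The levels of the members in the 2 lines were compared as well. None was called in untreated cells (background 3.43%), with bortezomib at 24 h (3.75%), with bortezomib at 6 h in a contrast added after the values were seen (2.26%), or averaged over treatment and time at the adjusted p under 0.001 used there (2.37%). Without bortezomib replicate 2 of LP-1-cIAP2-eGFP at 24 h, the share with bortezomib at 24 h was 30.6%. At an unadjusted p under 0.05 the counts were 2, 1, 3 and 3 of 8, beside 18.8%, 24.2%, 13.5% and 27.8% of probes. With bortezomib at 6 h, HSPA6 was at 17.44 and 17.48 in LP-1-eGFP and at 16.33 and 15.95 in LP-1-cIAP2-eGFP, a difference of -1.32 ± 0.31 (adjusted p = 0.0563). Its dimmer probe gave -1.92 ± 0.37 and was called (adjusted p = 0.0230). Another setting left out the array of low signal and untreated replicate 1 of LP-1-eGFP at 24 h. The latter was picked for the members' own values, so nothing is read from that setting. With it counted, HSPA6 was called under 8 of 12 other settings, with an adjusted p from 0.00504 to 0.346 over all of them. Among these 8 is the setting that averages the probes of a gene, so it includes the dimmer probe and does not stand for the brighter one. With the slide as a fixed block the brighter probe gave -1.12 (adjusted p = 0.346). Both LP-1-cIAP2-eGFP arrays in question were on slide 1 while both LP-1-eGFP arrays were on slide 2, so slide and line cannot be told apart in these 4 arrays. BAG3 gave -0.90 ± 0.33 (adjusted p = 0.232). HSPA1L, averaged over treatment and time, differed by 0.46 (adjusted p = 0.0293), which is past neither the threshold of 0.001 nor 2-fold.

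The order of the 8 condition means was read for HSPA6. Bortezomib at 6 h in LP-1-eGFP was highest (17.46 ± 0.03, SD, n = 2), followed by bortezomib in LP-1-cIAP2-eGFP at 24 h (16.99 ± 0.20), LP-1-eGFP at 24 h (16.65 ± 0.44) and LP-1-cIAP2-eGFP at 6 h (16.14 ± 0.27). Untreated cells followed, with LP-1-cIAP2-eGFP (8.95 ± 0.13) and LP-1-eGFP (8.59 ± 0.03) at 6 h above LP-1-cIAP2-eGFP (7.62 ± 0.03) and LP-1-eGFP (7.28 ± 0.71) at 24 h. The arrays of the neighbouring 24 h groups overlapped, both with bortezomib and untreated. For HSPA8 the 4 bortezomib groups came first, and neighbours among them overlapped. The lowest of them did not overlap with the untreated group that followed.

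The partners of the HSP70 cycle were read from 5 lists. Of all probes tested, 0.809% and 5.31% were called higher in LP-1-eGFP at 6 h and 24 h, and 0.549% and 6.42% in LP-1-cIAP2-eGFP. The shares called lower were 0.314%, 6.67%, 0.196% and 12.2%, in the same order. Of 7 tested members of the wider HSP70 superfamily, 5 and 3 rose in LP-1-eGFP at 6 h and 24 h and 4 and 3 in LP-1-cIAP2-eGFP, and none fell. HSPA5, the HSP70 of the endoplasmic reticulum, rose by 2.49, 2.59, 2.23 and 2.30 in the order just given. HSPA12A, a distant relative, rose by 1.67, 3.40, 1.87 and 2.37. HYOU1, an exchange factor of the endoplasmic reticulum, rose at 6 h, by 1.05 and 1.31, and its values at 24 h were 0.68 and 0.55. The mitochondrial HSPA9 rose at 24 h, by 1.03 and 1.37, and its values at 6 h were 0.62 and 0.51.

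Of 14 tested J-domain proteins, 6 and 8 rose in LP-1-eGFP and 4 and 8 in LP-1-cIAP2-eGFP, and none fell. DNAJB1, the main stress-inducible partner of cytosolic HSP70, rose by 3.98, 4.495, 3.18 and 4.79. DNAJB4 rose by 1.96, 2.15, 1.63 and 2.86, and DNAJB5 by 1.06, 1.30, 1.23 and 1.72. DNAJB9, a J-domain protein of the endoplasmic reticulum, rose by 1.68, 1.33, 1.68 and 2.46. The median over the list was 0.87, 1.22, 0.83 and 1.23.

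Of 12 tested HSP70 cofactors, 1, 1, 0 and 2 rose and 1 fell, in LP-1-cIAP2-eGFP at 24 h, with medians of 0.17, 0.01, -0.00 and -0.18. Of all probes, 0.809%, 5.31%, 0.549% and 6.42% were called higher, and 12.2% lower in the last comparison. ST13, which binds HSP70 in its ADP state, rose at 24 h, by 1.80 and 1.67. BAG2, an inhibitor of the ubiquitin ligase that acts with HSP70, rose at 6 h in LP-1-eGFP by 1.19. BAG4 rose at 24 h in LP-1-cIAP2-eGFP by 2.20, where its value in LP-1-eGFP was -0.18. GRPEL1, the mitochondrial exchange factor, fell at 24 h in LP-1-cIAP2-eGFP by 1.04. Without the array of low signal, 3 cofactors were called higher and 0 lower in that comparison.

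Of 16 heat shock factors and further HSF1 targets, 4, 3, 2 and 2 rose and none fell, beside 0.809%, 5.31%, 0.549% and 6.42% of all probes called higher. SERPINH1, a collagen chaperone and HSF1 target, rose by 3.32, 2.41, 1.93 and 2.79. CHORDC1, an HSP90 cochaperone, rose by 1.91, 1.01 and 1.46 in the first 3 comparisons, and its value in LP-1-cIAP2-eGFP at 24 h was 0.79. HSP90AB1 rose at 24 h, by 1.16 and 1.07, and AHSA1 at 6 h in LP-1-eGFP by 1.16. The transcript of HSF1 itself, which is regulated mainly as a protein, gave -0.04, 0.51, -0.06 and 0.33, and none of these was called. The 8 reference genes lay between -0.86 and 0.45 over the 4 comparisons, all under 2-fold, with medians of 0.06, -0.29, 0.02 and -0.36.

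Of 6 tested partners of BAG3 in selective autophagy, 2, 4, 2 and 4 rose, and SYNPO fell at 24 h in both lines. GABARAPL1, an autophagosome protein, rose by 3.28, 4.29, 3.73 and 5.39. SQSTM1, the autophagy receptor p62, rose by 1.89, 2.52, 1.78 and 3.21, and WIPI1, which acts at the forming autophagosome, rose at 24 h by 1.39 and 2.21. SYNPO, which encodes synaptopodin and is known as a binding partner of BAG3, gave 11.56 and 11.71 on untreated and 6.47 and 7.31 on bortezomib arrays of LP-1-eGFP at 24 h. In LP-1-cIAP2-eGFP it gave 9.88 and 9.71 against 2.56 and 5.71, of which the lower was not well above background. SYNPO fell by 4.74 on the log2 scale in LP-1-eGFP (adjusted p = 0.00168). In LP-1-cIAP2-eGFP the fitted value was -5.66 (adjusted p = 0.000485), which includes the array that was not well above background, and the array that measured SYNPO lay at -4.08 from the untreated mean. The shares called in all 5 lists can be read against the percentages of all probes given above, and the lists were not tested as sets.

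**Figure D5:**
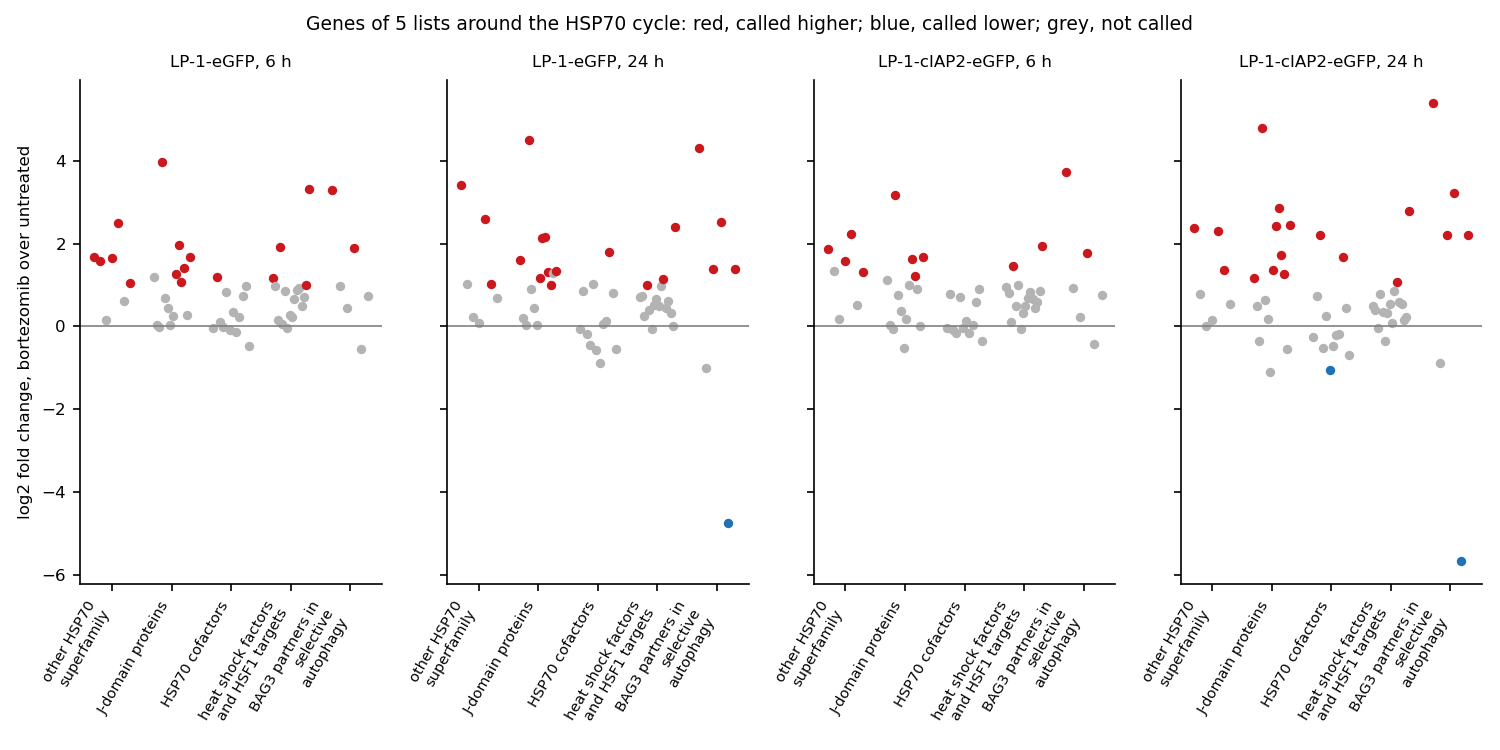
Log2 fold change of bortezomib over untreated cells for the tested genes of 5 lists around the HSP70 cycle, in LP-1-eGFP and LP-1-cIAP2-eGFP at 6 h and 24 h. Red points were called higher, blue points lower and grey points neither. GABARAPL1 reaches 5.39 in LP-1-cIAP2-eGFP at 24 h, and the lowest point is SYNPO in the same panel, at a fitted -5.66 that rests on 1 measured bortezomib array.

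Over the 8 condition means, the genes other than the 9 members whose pattern was most like that of BAG3, among 9668 symbols measured on all arrays, were DEDD2 (Pearson r = 0.993), HSPA5 (0.993), RAET1K (0.993), OSGIN1 (0.986) and SERPINH1 (0.983). Their rise at 24 h in LP-1-eGFP was between 1.05 for RAET1K and 2.90 for OSGIN1. For HSPA8 they were ARHGEF7 (0.968), HSP90AB1 (0.967), PRDM4 (0.962), RBM33 (0.958) and DDX49 (0.958), of which ARHGEF7 changed by 0.21. The correlations are descriptions over means that share arrays and a treatment.

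Plasma cell markers changed in the same 24 h comparisons as the chaperones. Of the 9 markers, 5 fell and 1 rose in LP-1-eGFP at 24 h and 7 fell in LP-1-cIAP2-eGFP at 24 h, where 6.67% and 12.2% of all probes were called lower and 5.31% of all probes higher in LP-1-eGFP. At 6 h 1 and 0 fell, beside 0.314% and 0.196%. The median log2 fold change of the 9 was -1.47 in either line at 24 h and -0.26 and -0.25 at 6 h. SDC1 fell in LP-1-eGFP at 6 h and 24 h, with log2 fold changes of -1.44 and -1.80, and in LP-1-cIAP2-eGFP at 24 h, with -3.11. The log2 of the summed signal of the 9 marker probes, in which bright probes such as that of XBP1 count most, was 18.48 to 18.80 on the 8 untreated arrays, 18.23 to 18.45 with bortezomib at 6 h and 17.14 to 17.30 at 24 h. Their part in the values of the HSP70 family was not tested.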

How the data were processed

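Agilent SurePrint G3 arrays of both LP-1 lines were used, 16 in all, with groups taken from the labels. The deposited intensity of each spot was made by the authors with Agilent Feature Extraction (version 10.7.3.1), which subtracts background and spatial trends and does not normalize between arrays. The authors also deposited log2 values, quantile normalized in GeneSpring, which were centred on each probe's median over the arrays, and these were used as an alternative. No column held comparisons of the authors, and no value column was left unused.

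Outlier spots were left out, repeated spots were averaged as log2 values, and arrays were quantile normalized with limma 3.58.1 in R 4.3.3. A probe was tested where, in 1 condition or more, both arrays had it well above background (33725 of 50599). Symbols came from a RefSeq table of GRCh38.p14, matched for 28174 gene probes. Each condition had its own mean (lmFit, contrasts.fit, eBayes, 1.61 prior degrees of freedom), with Benjamini-Hochberg adjustment over all probes tested. Bortezomib responses and line differences needed more than 2-fold and an adjusted p under 0.05 (under 0.001 for the line difference averaged over treatment and time, whose fold was that between the untreated lines), and differences of responses an adjusted p under 0.05 alone. The script was checked on simulated data. Replicates are biological according to the Methods, and p-values measure the spread between these arrays.

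The members and lists were chosen with earlier results of these data known. Genes named from each list were the 4 called in most of the 4 bortezomib comparisons, with ties broken by the size of the change at 24 h in LP-1-eGFP, together with HSF1, and the likeness genes were the 5 with the highest Pearson correlation of condition means. HSPA1A bounds use means of normalized log2 values, and the counts without HSPA1A were added after the values were seen. Alternatives were 75th percentile scaling, normexp (offset 50), the authors' values, no filter and a filter on all arrays, the replicate number or slide as a block, array weights, each line alone, averaged probes, outlier spots kept, the lines as 2 groups and a 3-way analysis of variance without moderation for the averaged line difference, and each array left out. Heat shock elements were counted in RefSeq promoter windows. 1 of the cell type markers examined is not reported here.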

Additional observations from a re-analysis of the deposited data

Results flagged for a closer look

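The differences of responses were read for 29 genes, the 8 members other than HSPA1A and 21 named from the lists, in 4 comparisons, and 12 of the 116 cases had an adjusted p under 0.05 in limma. These were 9 of 29 genes for the times in LP-1-cIAP2-eGFP (8.63% of all probes), 2 of 29 for the times in LP-1-eGFP (3.93%), 1 of 29 between the lines at 24 h (0.0712%) and 0 of 29 at 6 h (0.00297%). The list genes, other than HSF1, were named for their bortezomib responses, so the shares are not compared. The response of HSPA6 in LP-1-cIAP2-eGFP was larger at 24 h than at 6 h by 2.18 on the log2 scale (adjusted p = 0.0173), and with 1 array left out it was 1.99 to 2.37 and called in 11 of 16 fits. It was not called with array weights (adjusted p = 0.113) or with each line fitted alone (adjusted p = 0.0802). The responses of GABARAPL1 (1.67, adjusted p = 0.00453) and BAG4 (2.28, adjusted p = 0.00247) in that line were larger at 24 h and were called in 16 of 16 such fits, and that of WIPI1 (1.46, adjusted p = 0.0104) in 15. DNAJB4 (1.23, adjusted p = 0.0221) and ST13 (1.09, adjusted p = 0.0221) were called in 12 of 16, SQSTM1 (1.43, adjusted p = 0.0239) in 11 and HSPA9 (0.86, adjusted p = 0.0495) in 2. The response of SYNPO in that line was lower at 24 h by -5.23 (adjusted p = 0.0175), called in 10 of 16 fits, and by -3.65 (adjusted p = 0.00127) without bortezomib replicate 1 at 24 h, where its signal was not well above background. In LP-1-eGFP the responses of HSPA12A (1.73, adjusted p = 0.0419) and ST13 (1.07, adjusted p = 0.0379) were larger at 24 h, and these were called in 5 and 3 of 16 fits. Without replicate 1 of the untreated cells at 24 h they were 1.35 (adjusted p = 0.0914) and 1.17 (adjusted p = 0.0582). Between the lines, the response of BAG4 at 24 h was higher in LP-1-cIAP2-eGFP by 2.38 (adjusted p = 0.0337), called in 4 of 16 fits.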

How the results depend on the processing

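The direction of the bortezomib response was kept under each setting and each array left out for the members other than HSPA2, with HSPA1A known only by bounds. HSPA2 in LP-1-cIAP2-eGFP at 24 h was fitted at -0.41 without bortezomib replicate 2 (adjusted p = 0.677), which leaves an array on which it was not well above background, so that sign was not measured, and at 1.74 without replicate 1. Over the settings other than leaving out 1 array, HSPA6 ranged from 8.66 to 9.06 and 8.66 to 9.48 in LP-1-eGFP at 6 h and 24 h and from 6.83 to 7.29 and 8.64 to 9.51 in LP-1-cIAP2-eGFP. In these counts HSPA1A is included. The number of members called in LP-1-cIAP2-eGFP at 6 h was 2 with each line fitted alone, where BAG3, HSPH1 and HSPA1A were lost. The line difference with bortezomib at 6 h was called for 1 member under 75th percentile scaling, normexp, the filter on all arrays, the replicate block, slide as a random block, array weights, averaged probes and without 2 arrays, the one of low signal and untreated replicate 1 of LP-1-eGFP at 24 h, of which the latter was picked for the members' own values, so nothing is read from that setting, and that at 24 h for 1 under 75th percentile scaling and without these 2. The difference between times was called for 1 member in LP-1-eGFP with array weights or without these 2, and in LP-1-cIAP2-eGFP for 0 with array weights or each line alone and for 2 without these 2. With array weights 2 members were called between untreated cells at 24 h and 6 h. The cause was not tested. With 1 array left out, the members called were 3 to 6 and 6 to 8 in LP-1-eGFP at 6 h and 24 h, 3 to 5 and 5 to 7 in LP-1-cIAP2-eGFP, 0 to 1 for the difference between the lines at 24 h, 0 to 2 for the difference between times in either line, 0 to 1 for the line differences in untreated cells and in bortezomib-treated cells at either time, and 0 to 2 for untreated cells between times. With HSPA1A counted, the inducible members stood apart on 6 to 8 arrays with 1 array left out and on 5 to 7 under other settings. A lone array left in a condition is assumed to vary like the others. Heat shock elements of 2 units in place of 3 were found in 5 members in place of 2.

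Over the other settings the number of all probes called ranged from 219 to 1204 (379 as reported) and 2512 to 5725 (4043) in LP-1-eGFP at 6 h and 24 h, from 10 to 599 (251) and 2818 to 6556 (6262) in LP-1-cIAP2-eGFP, from 348 to 4198 (1325) and 30 to 4840 (2910) for the differences between times, and from 0 to 5 (1) and 0 to 80 (24) for those between the lines. It ranged from 383 to 1194 (799) for the averaged line difference, 413 to 1611 (1156) in untreated cells, 97 to 1406 (1264) and 344 to 1526 (763) with bortezomib at 24 h and 6 h, and 0 to 11 (3) between untreated times. With 1 array left out it ranged from 70 to 642 and 3073 to 5064 in LP-1-eGFP, from 84 to 521 and 4554 to 13344 in LP-1-cIAP2-eGFP, from 330 to 3792 and 1099 to 12688 between times, and from 0 to 6 and 0 to 9337 between the lines. The 13344, 12688 and 9337 were without bortezomib replicate 2 of LP-1-cIAP2-eGFP at 24 h. With 75th percentile scaling the median over all probes in LP-1-cIAP2-eGFP at 24 h was 0.21 in place of -0.16. The calls of HSPA1A rest on a dim probe, and the filter on all arrays left 7 of 9 members. Replicate numbers did not pair the arrays (r of -0.113 to 0.236 over 28 pairs of conditions), and the replicate block changed no other count of members by over 1.5 times.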
